A study of Mus musculus with 3 samples.

Results

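A set of 9 genes of the monocyte-attracting CC chemokine system were followed through single cells of the injured mouse femoral artery: the ligands Ccl2, Ccl7, Ccl8, Ccl12, Ccl3, Ccl4 and Ccl5 and the receptors Ccr2 and Ccr1. They were taken by symbol, and all 9 were found among the 32285 genes of each library. The groups were arteries after a sham operation (Sham), and arteries 2 days (D2) and 7 days (D7) after wire-induced femoral artery injury, in which a wire strips the endothelium and stretches the wall. All were wild-type (WT) male mice of 8 weeks. Live single cells, sorted after staining with the dead-cell dye DAPI, were pooled from 6 mice into 1 Chromium 3' v3 droplet library per group. When Sham arteries were taken is not stated in the labels, and the controls carry no injury at either time. With 1 library per group no difference could be tested, and group and library preparation cannot be told apart. The intervals below are 95% intervals for counting error only, and they are too narrow where a few cells hold most of the transcripts.

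CC chemokines are small secreted proteins that draw leukocytes through G protein-coupled receptors. Ccl2, Ccl7 and Ccl12 bind CCR2, the receptor that brings classical monocytes out of bone marrow and into injured tissue. Mouse Ccl8 lies in the same gene cluster and is best known as a ligand of CCR8. Ccl3 and Ccl5 bind CCR1, which is carried by monocytes and neutrophils, and Ccl4 is the close relative of Ccl3. In injured arteries this system is known for recruiting the monocytes and macrophages that accompany the growth of a neointima.

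The ligand genes lie in 2 neighbouring stretches of chromosome 11 (GENCODE M21 on GRCm38/mm10, all protein-coding). Ccl2 spans chr11:82035571-82037453, Ccl7 chr11:82045712-82047525, Ccl12 chr11:82101845-82103400 and Ccl8 chr11:82115185-82116799, all on the plus strand. Ccl5 spans chr11:83525778-83530518 and Ccl3 chr11:83647844-83649355 on the minus strand, and Ccl4 chr11:83662584-83664683 on the plus strand. The receptor genes lie on chromosome 9, Ccr1 at chr9:123962124-123968692 on the minus strand and Ccr2 at chr9:124101950-124113557 on the plus strand. Gm17268 on the opposite strand overlaps Ccl2. It had 735 UMIs in Sham, 1289 in D2 and 2045 in D7, against 17912, 54462 and 50750 for Ccl2. Whether counting used the strand is not given in the sources used here.

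Ccl12 and Ccl8 are next to each other, and both were held mainly by macrophages, so their promoters are shown side by side. The windows are the 250 bases before each start site from RefSeq (GRCm38.p6), chr11:82101595-82101844 for Ccl12 and chr11:82114935-82115184 for Ccl8, both on the plus strand and written 5' to 3'. Capitals mark the TATA box motif, spelled TATAAA.
Ccl12: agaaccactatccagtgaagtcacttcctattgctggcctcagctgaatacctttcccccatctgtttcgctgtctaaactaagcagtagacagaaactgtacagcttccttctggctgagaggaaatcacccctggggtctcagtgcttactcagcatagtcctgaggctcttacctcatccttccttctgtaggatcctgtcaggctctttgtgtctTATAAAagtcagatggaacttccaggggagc
Ccl8: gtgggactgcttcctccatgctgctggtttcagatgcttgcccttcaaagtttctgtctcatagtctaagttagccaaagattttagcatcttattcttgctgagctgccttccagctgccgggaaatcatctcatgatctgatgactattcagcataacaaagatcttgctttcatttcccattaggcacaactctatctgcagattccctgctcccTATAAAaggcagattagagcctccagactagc
The RefSeq table held this window for 5 of the 9 genes (Ccl8, Ccl12, Ccl3, Ccr2 and Ccr1). TATAAA, searched on the gene's strand, began 31 bases before the start of Ccl12 and 32 bases before that of Ccl8, and 8.12% of 27025 promoters of the same length hold it. The 2 windows were identical in 54.5% of aligned columns, against 43.2% to 50.6% for the other pairs among the 5. None of the 5 windows held the AP-1 motif TGANTCA, the interferon-stimulated response element or the NF-kB motif on either strand, which 6.87%, 3.04% and 3.75% of all promoters hold.

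Cell classes were rebuilt from fixed markers and are called by the class name although they rest on transcripts alone. Of 28 clusters 24 were named. The libraries kept 7329 (Sham), 10988 (D2) and 10852 (D7) cells with medians of 4077, 6626 and 6722 unique molecular identifiers (UMIs, 1 per captured transcript) per cell. Of the cells in Sham, D2 and D7, fibroblasts made up 52.5%, 1.04% and 28.7%, monocytes and macrophages 15.2%, 39.1% and 25.3%, and neutrophils 1.96%, 41.0% and 14.5%. Levels are UMIs of the gene scaled to 1000000 UMIs of the summed class (CPM). A shift in a whole-library level can come from other cells or from more RNA per cell, which the sum cannot tell apart. A gene is called apart between 2 libraries if the higher one held at least 50 CPM and 20 UMIs and the ratio of (CPM + 1) was at least 2, a rule of size and no test.

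Over all cells, the receptors, the Ccl3/Ccl4 pair and Ccl12 stood higher at D2 than in Sham. Of these, Ccl3, Ccl12 and Ccr1 were also apart at D7 against Sham, whereas the summed levels of Ccl2 and Ccl7 differed little. At D2 against Sham 6 of the 9 genes were apart, where 30.5% of all genes passing the same minimum were apart in either direction, and 5 were higher (14.4% of all genes). At D7 against Sham there were 4 (12.1% of all genes), and at D7 against D2 there were 4 (21.3% of all genes). Ccl2 had 471, 598 and 533 CPM in Sham, D2 and D7, and Ccl7 had 372, 440 and 423 CPM. Ccl3 had 64.2, 801 and 261 CPM in Sham, D2 and D7, and Ccr1, its receptor, 30.7, 352 and 100.3 CPM in Sham, D2 and D7. Ccr2 had 125, 587 and 179 CPM in Sham, D2 and D7, highest at D2. Ccl5, a chemokine of T and natural killer (NK) cells, ran the other way with 464, 51.9 and 153 CPM in Sham, D2 and D7. In Sham, D2 and D7, the rest of the set stood as follows: Ccl4 had 265, 848 and 469 CPM, Ccl12 35.6, 151 and 107 CPM, and Ccl8 108, 143 and 178 CPM.

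**Figure D1:**
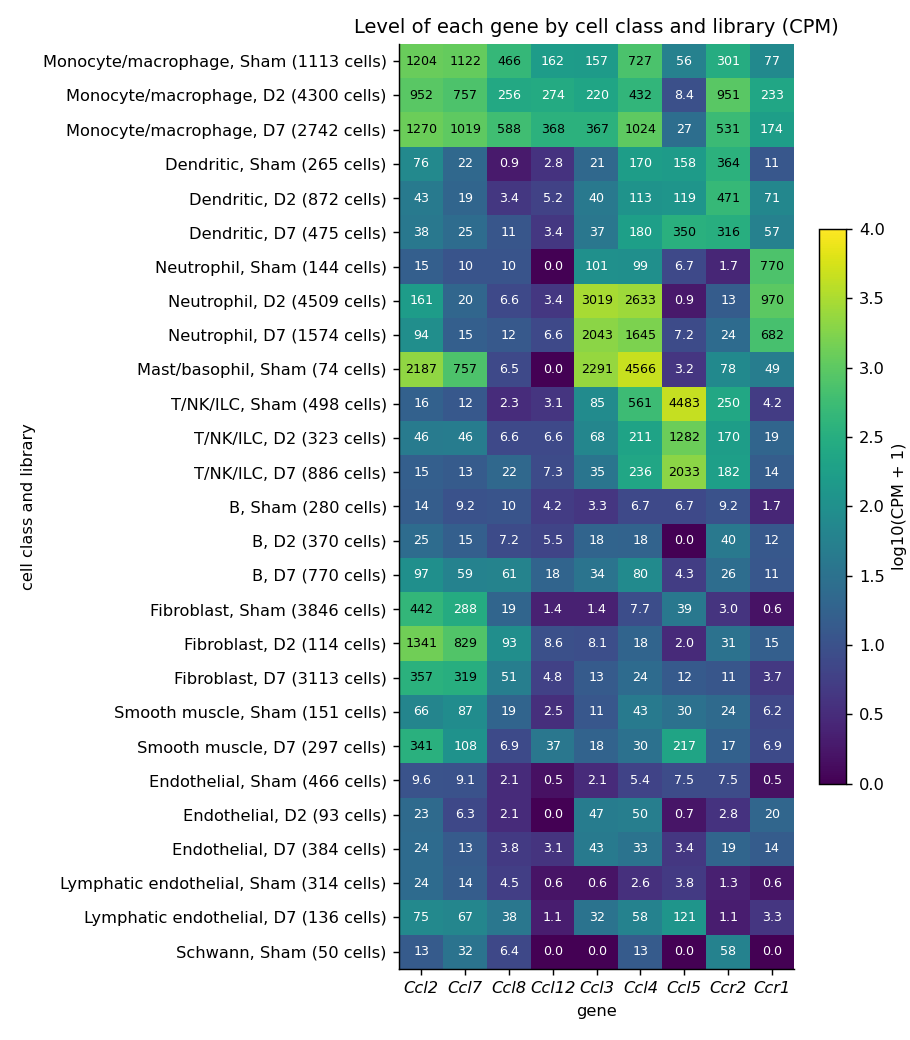
Level of each gene in every cell class and library with at least 50 cells. Rows are classes and libraries with their number of cells, columns are genes, the printed number is CPM and the colour log10(CPM + 1). Ccl12 reaches 162 to 368 CPM in monocytes and macrophages, and Ccl3 3019 CPM in D2 neutrophils.

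Among the ligands of CCR2, Ccl2 was carried mainly by monocytes and macrophages and by fibroblasts. Monocytes and macrophages held 53.3% of Ccl2 UMIs in Sham, 85.9% in D2 and 61.2% in D7, and fibroblasts held 39.7%, 4.86% and 26.8%. Within monocytes and macrophages, the Ccl2 level was 1204, 952 and 1270 CPM in Sham, D2 and D7. The D2 level was 1.26-fold (1.24 to 1.29) lower than Sham and the D7 level 1.06-fold (1.03 to 1.08) higher, so neither was apart. The highest Ccl2 level in Sham belonged to mast cells and basophils, 2187 CPM (2025 to 2359) in 74 cells. Among the other named classes in Sham, monocytes and macrophages came next, then fibroblasts, and then dendritic cells at 75.7 CPM (66.4 to 85.9) and smooth muscle cells at 65.6 CPM (49.1 to 85.8), whose intervals overlap.

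Fibroblasts stood apart at D2 for each of their 3 genes above the minimum, Ccl2, Ccl7 and Ccl8, where 28.4% of all genes were apart. Their Ccl2 level was 442, 1341 and 357 CPM in Sham, D2 and D7, which put D2 3.03-fold (2.90 to 3.17) above Sham and D7 3.76-fold (3.60 to 3.92) below D2. Ccl7, whose product also binds CCR2, had 288, 829 and 319 CPM in Sham, D2 and D7 fibroblasts, 2.88-fold (2.72 to 3.04) higher at D2 than in Sham. Ccl8 had 19.3, 92.7 and 50.6 CPM in Sham, D2 and D7, 4.82-fold (3.99 to 5.80) higher at D2 and 2.63-fold (2.33 to 2.98) higher at D7 than in Sham. It was the 1 fibroblast gene apart at D7 against Sham (17.9% of all genes), and Ccl2 and Ccl7 were lower at D7 than at D2 (12.2% of all genes). The D2 values rest on 114 fibroblasts, of which 8 held 50% of the Ccl2 UMIs, and taking the mean over cells brings the D2 over Sham ratio of Ccl2 to 1.90 and the D7 over D2 ratio of Ccl7 to 0.516, neither of them apart. The summed level of the 14 monocyte/macrophage markers in fibroblasts was 704 CPM at D2, 663 CPM at D7 and 281 CPM in Sham, with Ly6c2 at 0 in D2, and its part in these values was not tested. At D7 the Ccl8 level in B cells, 61.3 CPM, was above that in fibroblasts, and 3 of 770 B cells held 83.9% of those UMIs.

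Fibroblast clusters were not shared evenly by the libraries. Cluster 1, led by Mfap4, Cthrc1 and Postn, held 73.7% of D2 and 87.6% of D7 fibroblasts but 0.780% of those of Sham. Between Sham and D7 the directions differed in clusters 10 and 14, which held 76 and 123 cells at D7. Cluster 3, with 2051 cells in Sham and 187 in D7, is not described here. With cluster 3 left out, 15 of 36 fibroblast and whole-library ratios moved and 0 reversed. Median depths of fibroblasts were 1811.5, 8437 and 11905 UMIs in Sham, D2 and D7. In cluster 10, led by Inmt and Penk, Ccl2 had 656 CPM at D7 and 217 CPM in Sham, 3.02-fold (2.65 to 3.43) higher. In cluster 14, which holds the Pi16-expressing fibroblasts, it had 169 CPM at D7 and 622 CPM in Sham, 3.68-fold lower.

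Ccl8 and Ccl12 were more closely tied to macrophages than Ccl2 in each library, and Ccl7 was so in Sham and D2 but hardly in D7. At D7 fibroblasts held 12159 Ccl7 UMIs, against 24925 in monocytes and macrophages. Monocytes and macrophages held 63.0%, 92.9% and 61.9% of Ccl7 UMIs in Sham, D2 and D7, 90.4%, 96.3% and 84.7% of Ccl8 UMIs and 94.8%, 98.1% and 88.1% of Ccl12 UMIs. The class as a whole had 3 of 9 genes apart at D2 against Sham (12.5% of all genes), 4 of 9 at D7 against Sham (14.7%) and 2 of 8 at D7 against D2 (1.94%). Ccl7 was not among them, with 1122, 757 and 1019 CPM in Sham, D2 and D7. Ccl8 had 466, 256 and 588 CPM in Sham, D2 and D7, 2.30-fold (2.24 to 2.35) higher at D7 than at D2. Ccl12, the mouse chemokine closest to Ccl2 in receptor use, had 162, 274 and 368 CPM, 2.28-fold (2.15 to 2.41) higher at D7 than in Sham, a ratio that is 1.75 when each library is clustered on its own. Outside this class the highest Ccl12 level in a named class of at least 50 cells was 37.2 CPM, in D7 smooth muscle cells. There 1 of 297 cells held 113 of the 129 UMIs.

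**Figure D2:**
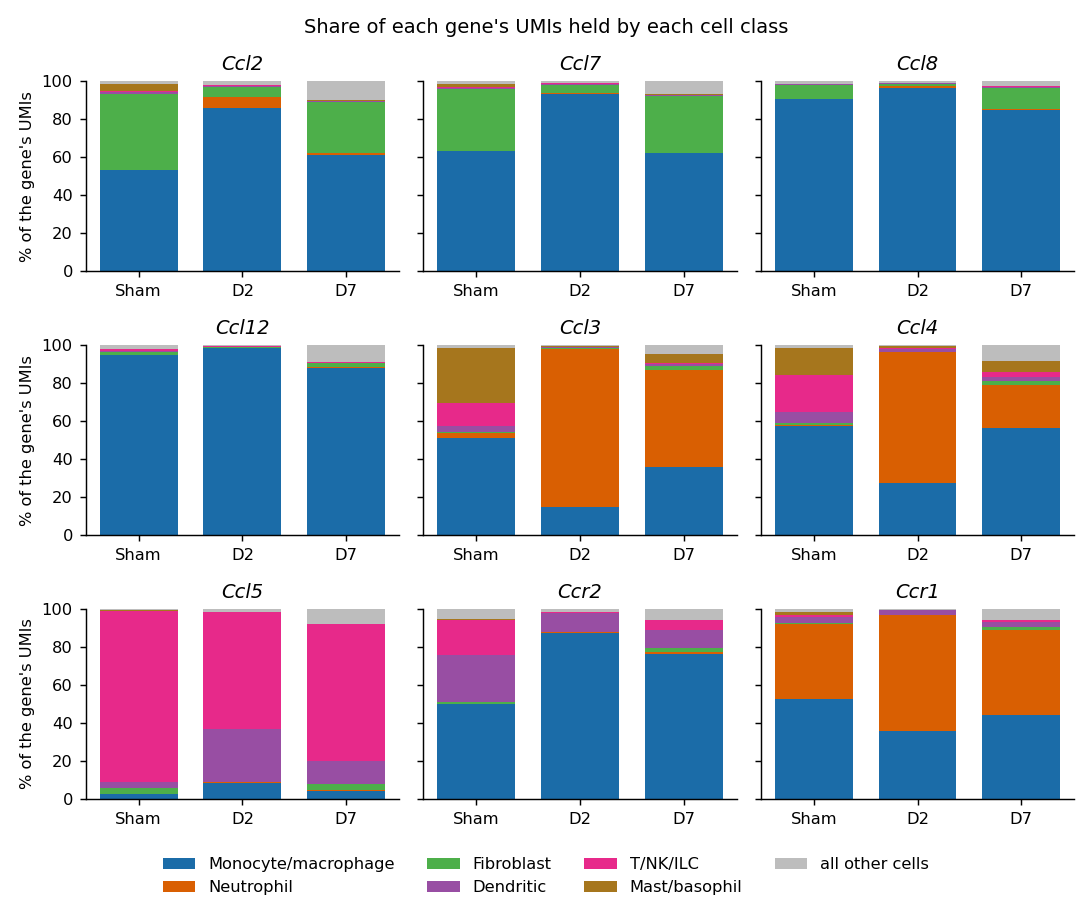
Share of each gene's UMIs held by each cell class, in percent, for Sham, D2 and D7 from left to right. The Ccl3 bar is mostly neutrophil at D2 (83.3%) and the Ccl5 bar mostly T, NK and innate lymphoid cells in all 3 libraries (90.1% in Sham, 61.4% in D2 and 72.2% in D7).

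The monocyte and macrophage class differed in makeup between libraries, so each gene was also read by cluster. Resident-like cluster 9 (led by Cd209f, Cd163, Folr2 and Lyve1) was 67.4% of the class in Sham, 1.28% in D2 and 10.7% in D7. Wound-like cluster 0 (Arg1, Trem2, Spp1) was 0.539% in Sham, 61.4% in D2 and 27.8% in D7. Monocyte-like cluster 4 (Chil3, Plac8, Ly6c2) was 13.8% in Sham, 20.2% in D2 and 25.9% in D7, and MHC class II-like cluster 5 was 17.8% in Sham, 12.6% in D2 and 32.6% in D7. Cluster 21, led by interferon-induced genes such as Ifit2, took no state name and was under 5% in each library.

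Ccl8 showed the sharpest contrast between these clusters. In resident-like cluster 9 it had 728 CPM in Sham, 1646 CPM in D2 and 3700 CPM in D7, a D7 level 5.08-fold (4.89 to 5.29) above Sham. The same gene had 1.67 CPM in Sham, 3.64 CPM in D2 and 7.76 CPM in D7 in monocyte-like cluster 4. In D7 cluster 9 held 10.7% of the cells of the class and 56.6% of its Ccl8 UMIs, against 99.0% of them in Sham and 10.2% in D2, where wound-like cluster 0 held 80.9%. Within the class, 24 of 1113 cells in Sham, 50 of 4300 in D2 and 56 of 2742 in D7 held 50% of all Ccl8 UMIs. The D2 value of cluster 9 rests on 55 cells. Of the 8 resident macrophage markers, 6 were lower in cluster 9 at D7 than in Sham and 2 were higher. Timd4, a marker of long-lived resident macrophages, had 9.54 CPM at D7 and 161 CPM in Sham, and Folr2 had 511 CPM at D7 and 900.2 CPM in Sham. Mrc1 had 2927 CPM at D7 and 2668 CPM in Sham, and Gas6 had 625 CPM at D7 and 593 CPM in Sham. Ccr2 in cluster 9 was higher, at 494 CPM in D7 and 89.8 CPM in Sham. The part of these marker differences in the Ccl8 level was not tested.

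Ccl2 and Ccl7 in cluster 9 were lowest at D2. Ccl2 had 1717 CPM in Sham, 712 CPM in D2 and 1829 CPM in D7, and Ccl7 had 1709 CPM in Sham, 906 CPM in D2 and 2365 CPM in D7. The 55 D2 cells also differed in markers from those of Sham. Timd4 had 1.29 CPM and Lyve1 216 CPM, against 161 and 901 CPM in Sham. Mrc1 and Cbr2 ran the other way, at 3016 and 804 CPM against 2668 and 670 CPM. Of the wound markers, Spp1 had 445 CPM at D2 and 0.596 CPM in Sham, and Hmox1 1019 and 1157 CPM. The part of these differences in the Ccl2 and Ccl7 levels was not tested. Wound-like cluster 0, nearly absent from Sham, held 73.8% of the class's Ccl2 UMIs and 83.6% of its Ccl7 UMIs at D2. In it Ccl2 had 1692 CPM at D7 and 1102 CPM at D2, and Ccl7 1377 CPM at D7 and 993 CPM at D2. Monocyte-like cells carried Ccl2 as well, with 172, 665 and 537 CPM in Sham, D2 and D7, but little Ccl7, with 10.0, 139 and 134 CPM. In MHC class II-like cluster 5 the D7 level of Ccl2 was 2.53-fold (2.34 to 2.74), that of Ccl7 5.60-fold (4.91 to 6.40) and that of Ccl12 11.5-fold (8.79 to 15.3) above Sham. Ccl12 was highest in interferon cluster 21, with 1010 CPM at D2 and 916 CPM at D7. In cluster 9 it had 242 CPM in Sham, 292 CPM in D2 and 787 CPM in D7.

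**Figure D3:**
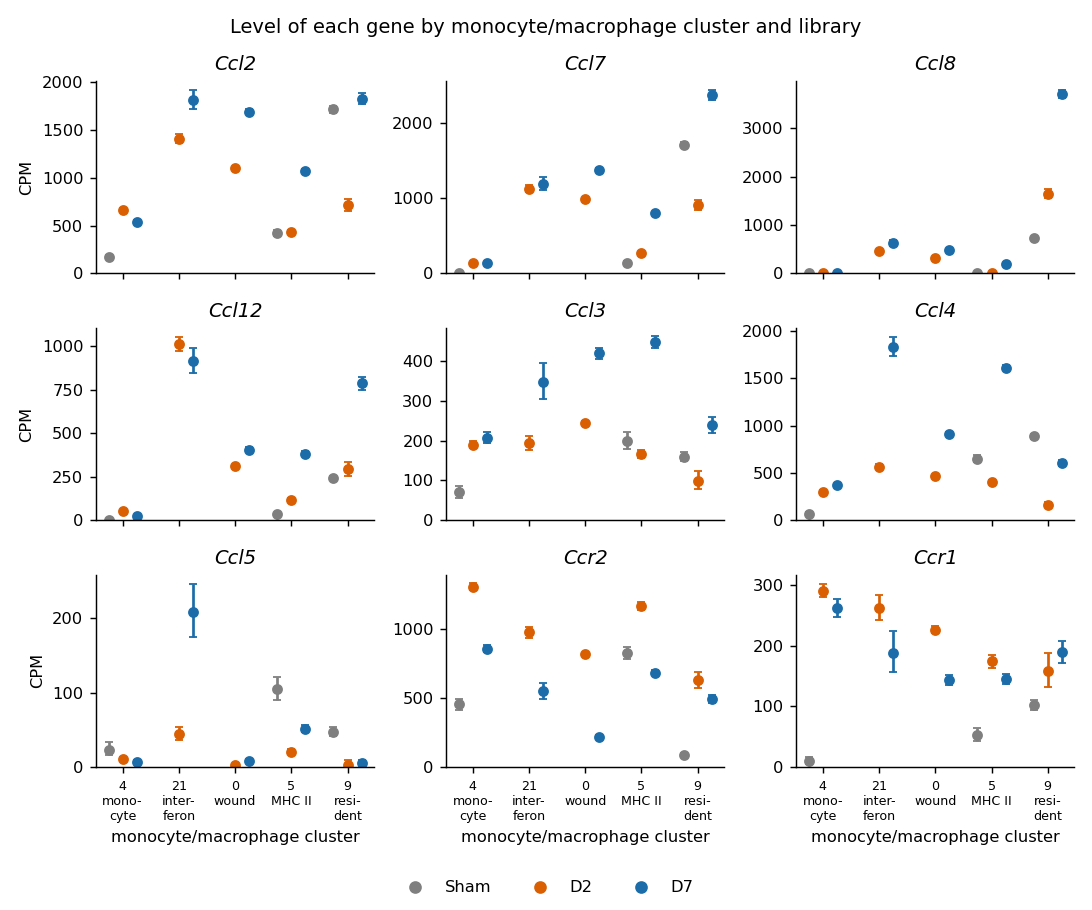
Level of each gene (vertical axis, CPM) in the 5 monocyte/macrophage clusters (horizontal axis) for Sham, D2 and D7, where the cluster had at least 50 cells in the library; bars are 95% Poisson intervals. Ccl8 stands at 3700 CPM in resident-like cluster 9 at D7, and Ccr2 at 1305 CPM in monocyte-like cluster 4 at D2.

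Ccl3 and Ccl4, known as macrophage inflammatory proteins, differed most of the 9 genes between injured and Sham neutrophils. Neutrophils had 3 of their 4 genes above the minimum apart at D2 against Sham (28.8% of all genes) and at D7 against Sham (29.6%), and 0 at D7 against D2 (2.98%). Their Ccl3 level was 101 CPM in Sham (76.8 to 130), 3019 CPM in D2 and 2043 CPM in D7. D2 was thus 30.01-fold (23.3 to 39.3) and D7 20.3-fold (15.8 to 26.6) above Sham. Ccl4 had 98.9, 2633 and 1646 CPM in Sham, D2 and D7, 26.6-fold (20.6 to 35.0) higher at D2 and 16.6-fold (12.9 to 21.9) higher at D7 than in Sham. Neutrophils held 2.46% of Ccl3 UMIs in Sham, 83.3% in D2 and 51.0% in D7. Sham had 144 neutrophils, and its values rest on 60 UMIs of Ccl3 and 59 of Ccl4. Without the 3 cells with most UMIs of each gene, the D2 over Sham ratios were 95.8 for Ccl3 and 71.2 for Ccl4, and those of D7 over Sham were 62.6 and 42.7.

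The neutrophils of the libraries fell mainly into different clusters, with cluster 15 holding 86.8% of those in Sham and cluster 2 holding 44.7% of those in D2 and 45.9% of those in D7. Cluster 15 had 125 cells in Sham, 375 in D2 and 350 in D7. Its Ccl3 level was 108 CPM in Sham, 1856 CPM in D2 and 1648 CPM in D7, 17.2-fold (13.2 to 22.7) and 15.2-fold (11.7 to 20.2) above Sham. Ccl4 in cluster 15 had 104 CPM in Sham, 1736 CPM in D2 and 1492 CPM in D7. At D2, Ccl3 was highest in cluster 22 with 4085 CPM and Ccl4 there had 4504 CPM. Ccl2 in neutrophils had 161 CPM at D2 and 93.7 CPM at D7, against 15.1 CPM in Sham (9 UMIs). Its direction turned when libraries were clustered separately (a ratio of 0.379 at D2 and 0.223 at D7 over Sham), and the D7 level was below the 96.5 CPM in B cells.

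To compare cells at 1 depth, each was thinned to 1000 UMIs and shallower cells were left out (1 in Sham, 38 in D2 and 15 in D7 neutrophils). Ccl3 was then seen in 6.29% of Sham, 60.1% of D2 and 51.8% of D7 neutrophils, against 11.1%, 75.5% and 67.2% without thinning. In B cells, used as background here, the thinned shares were 0 of 279 in Sham (which allows up to 1.08%), 1.65% in D2 and 1.18% in D7. Median depths in Sham, D2 and D7 were 3968, 3810 and 3354 UMIs in neutrophils and 4115, 4566 and 3503 UMIs in B cells.

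Other cells carried both genes too. Monocytes and macrophages had 157, 220 and 367 CPM of Ccl3 in Sham, D2 and D7, 2.33-fold (2.19 to 2.47) higher at D7 than in Sham, or 1.81-fold with libraries clustered separately. They had 727, 432 and 1024 CPM of Ccl4 in Sham, D2 and D7, 2.37-fold (2.33 to 2.41) higher at D7 than at D2. Most of the D7 Ccl4 of the class was in MHC class II-like cluster 5, with 50.5% of the UMIs and 1612 CPM, against 653 CPM in Sham. Mast cells and basophils had the highest Ccl4 of any class, 4566 CPM in Sham, 10549 CPM in D2 and 18345 CPM in D7, from 74, 12 and 34 cells. The 74 Sham cells also held 705 Ccl3 UMIs, against 1249 in Sham monocytes and macrophages and 60 in Sham neutrophils. In Sham 2 of these 74 cells held 50% of the Ccl4 UMIs and 3 held 50% of the Ccl3 UMIs, so no comparison of this class was made.

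**Figure D4:**
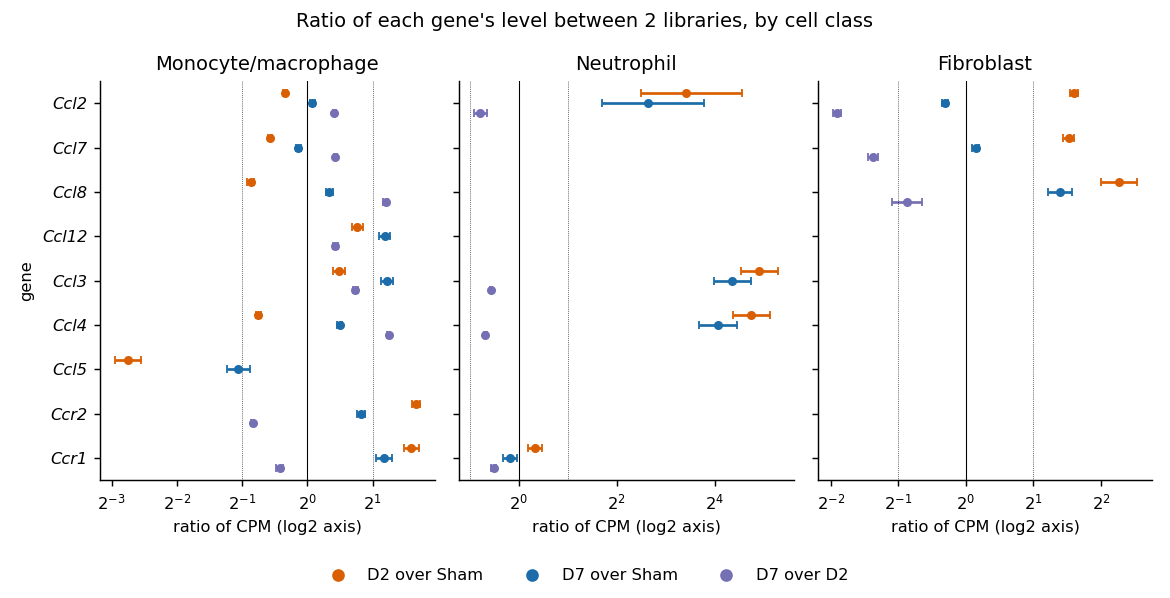
Ratio of each gene's level between 2 libraries (horizontal log2 axis, with dotted lines at 0.5 and 2) in monocytes and macrophages, neutrophils and fibroblasts, for genes above the minimum; bars are 95% intervals for counting error. Neutrophil Ccl3 stands at 30.01 for D2 over Sham and macrophage Ccl5 at 0.149.

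Ccl5 belonged to lymphoid cells. T, NK and innate lymphoid cells held 90.1% of its UMIs in Sham, 61.4% in D2 and 72.2% in D7, and dendritic cells held the next share after injury. In the lymphoid class it had 4483, 1282 and 2033 CPM in Sham, D2 and D7, 3.50-fold (3.36 to 3.64) lower at D2 and 2.21-fold (2.15 to 2.26) lower at D7 than in Sham. The class had 2 of 4 genes apart at D2 against Sham (5.52% of all genes) and 3 of 4 at D7 against Sham (4.96%), each of them lower (2.88% and 2.82% of all genes), and 0 at D7 against D2 (0.597%). Cluster 19, which carries the NK markers, had 9369 CPM in Sham, 4006 CPM in D2 and 7013 CPM in D7. Cluster 11, led by Lef1, Trbc2 and Themis, had 4071, 598 and 1010 CPM in Sham, D2 and D7, so that its D2 level was 6.80-fold and its D7 level 4.03-fold below Sham. Cluster 11 was 65.9% of the class at D2 and 65.3% at D7, against 40.2% in Sham. With thinning, Ccl5 was seen in 24.5% of lymphoid cells at D2 and 33.1% at D7, against 49.2% in Sham. The shares in B cells were 0 of 364 at D2 (which allows up to 0.824%), 0.131% at D7 and 0.717% in Sham.

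Lymphoid cells also carried Ccl4, which is made by cytotoxic lymphocytes, at 211 CPM in D2 and 236 CPM in D7, against 561 CPM in Sham, 2.66-fold (2.40 to 2.94) and 2.38-fold (2.21 to 2.55) lower. Their Ccl3 was 2.41-fold (2.00 to 2.92) lower at D7 than in Sham, with 182 UMIs at D7 and 301 in Sham. If called doublets are kept, that ratio is 0.647 and the D2 over Sham ratio of Ccl4 is 0.583, neither of them apart. Dendritic cells had 119 CPM of Ccl5 at D2 and 350.3 CPM at D7, against 158 CPM in Sham, and 6 of 475 cells at D7 held 50% of the UMIs. With libraries clustered separately the D7 over Sham ratio was 1.16. They had 1 gene apart at D2 against Sham (14.0% of all genes), 2 at D7 against Sham (10.8%) and 1 at D7 against D2 (2.22%). Ccl5 of monocytes and macrophages was low throughout, at 8.41 CPM in D2 and 27.1 CPM in D7, against 56.5 CPM in Sham, 6.72-fold (5.86 to 7.70) lower at D2 and 2.08-fold (1.84 to 2.35) lower at D7. The mean over cells gives a D7 over Sham ratio of 0.583. In Sham, 10 of 1113 cells held 50% of those UMIs.

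Ccr2, the receptor that marks recruited monocytes, was highest at D2 in monocytes and macrophages. This class held 50.2%, 87.4% and 76.2% of Ccr2 UMIs in Sham, D2 and D7, and dendritic and lymphoid cells held most of the rest. Its Ccr2 level was 951 CPM in D2 and 301 CPM in Sham, 3.16-fold (3.03 to 3.30) higher, and 531 CPM in D7. With stricter cell filters, with doublets kept or with libraries clustered separately, the D2 over Sham ratio lay between 4.77 and 5.06. The D7 level was 1.77-fold (1.69 to 1.85) above Sham and 1.79-fold (1.76 to 1.83) below D2, and neither was apart. Thinned to 1000 UMIs, 54.9% of these cells carried a Ccr2 UMI at D2 and 37.5% at D7, against 14.5% in Sham. In B cells, which are background here, the shares were 2.20% at D2, 1.05% at D7 and 0 of 279 in Sham, which allows up to 1.08%.

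By cluster, Ccr2 at D2 ran from 1305 CPM in monocyte-like cluster 4 and 1163 CPM in MHC class II-like cluster 5 down to 816 CPM in wound-like cluster 0 and 628 CPM in resident-like cluster 9. At D7 the order was 855 CPM in cluster 4, 680 CPM in cluster 5, 494 CPM in cluster 9 and 219 CPM in cluster 0, so cluster 0 was 3.73-fold lower at D7 than at D2. In Sham it was 823 CPM in cluster 5, 453 CPM in cluster 4 and 89.8 CPM in cluster 9. Cluster 4 was thus 2.88-fold (2.64 to 3.15) higher at D2 than in Sham. Dendritic cells had 471 CPM of Ccr2 in D2 and 316 CPM in D7, against 364 CPM in Sham. Cluster 20 of the lymphoid class, led by Dach2, Trdc and Cd163l1, had 543 CPM in D7 and 519 CPM in Sham.

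Ccr1 split between neutrophils and the monocyte and macrophage class. Neutrophils had 970 CPM at D2 and 682 CPM at D7, against 770 CPM in Sham, within 1.42-fold of each other and not apart. Monocytes and macrophages had 233 CPM at D2 and 174 CPM at D7, against 77.3 CPM in Sham, 3.02-fold (2.78 to 3.28) and 2.25-fold (2.07 to 2.45) higher. Monocyte-like cluster 4 had 291 CPM at D2 and 262 CPM at D7, against 9.17 CPM in Sham (11 UMIs). Dendritic cells had 71.3 CPM at D2 and 56.7 CPM at D7, against 10.99 CPM in Sham, 6.48-fold (4.62 to 9.38) and 5.16-fold (3.62 to 7.55) higher, or 3.18-fold and 3.02-fold when cells under 500 genes or 1000 UMIs are dropped. The 10 neutrophil markers in these dendritic cells summed to 1024 CPM at D2 and 950.3 CPM at D7, against 154 CPM in Sham with Cxcr2 and Ly6g at 0, and their part in the Ccr1 values was not tested.

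**Figure D5:**
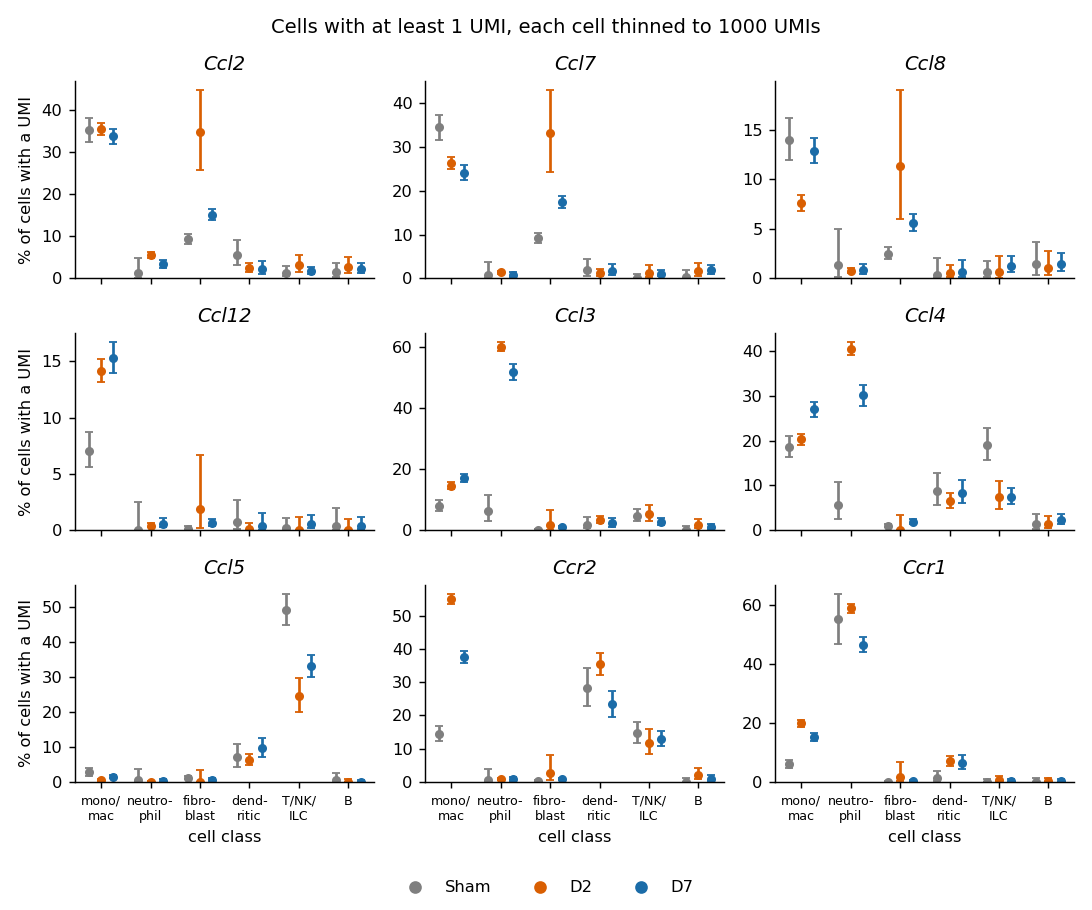
Percent of cells with at least 1 UMI of each gene after thinning to 1000 UMIs (vertical axis), by cell class (horizontal axis) and library. Bars are exact 95% binomial intervals. Cells under 1000 UMIs were left out, which removed many Sham fibroblasts. Of 3846, 240 with and 2311 without a Ccl2 UMI remained. Ccr1 is seen in 55.2%, 58.7% and 46.4% of Sham, D2 and D7 neutrophils, and Ccr2 in 54.9% of D2 monocytes and macrophages.

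Classes with few of these transcripts held them in very few cells. In D7 smooth muscle cells Ccl5 had 217 CPM, but 1 of 297 cells held 644 of its 753 UMIs, and 3 cells held 52.6% of the Ccl2 UMIs. In D7 B cells, 1 of 770 cells held 98 of the 186 Ccl8 UMIs. In D7 lymphatic endothelial cells, 1 of 136 cells held 49 of the 61 Ccl7 UMIs. There 3 cells held 67.6% of the Ccl2, 88.7% of the Ccl4 and 100% of the Ccl5 UMIs. Of the genes above the minimum, 4 of 4 in B cells were apart and higher at D7 than in Sham (3.45% of all genes), as were 4 of 4 in lymphatic endothelial cells (4.24%) and 2 of 3 in smooth muscle cells (9.97%). The monocyte/macrophage markers in B cells summed to 659 CPM at D2 and 1711 CPM at D7, against 619 CPM in Sham. In lymphatic endothelial cells they summed to 644 CPM at D7 and 167 CPM in Sham, and in smooth muscle cells to 762 and 677 CPM. The part of these markers in the levels of the 3 classes was not tested. Endothelial cells had at most 50.4 CPM of any of the 9 genes in any library. The injury strips the endothelium, but this class was not divided by vessel. Which of its cells belong to the stripped lining is therefore not known.

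Within monocytes and macrophages Ccl2 and Ccl7 were often seen in the same cells, and Ccl8 and Ccr2 seldom were. Among cells thinned to 1000 UMIs in Sham, D2 and D7, Ccl7 was seen in 64.3%, 46.8% and 53.5% of those with a Ccl2 UMI, against 18.1%, 14.9% and 9.05% of cells without one. In Sham, D2 and D7, Ccl8 was seen in 1.28%, 5.07% and 7.199% of cells with a Ccr2 UMI, against 16.1%, 10.7% and 16.2% of cells without one. The overlap of ligand and receptor was wider for Ccl2, seen in Sham, D2 and D7 in 23.7%, 33.9% and 29.3% of cells with Ccr2 and in 37.3%, 37.5% and 36.5% of cells without. In D2 neutrophils, 57.0% of cells with a Ccl3 UMI had Ccl4, against 15.4% of cells without.

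Across the 27 sums of a class in a library with at least 50 cells, the pairs most alike in level were Ccl2 with Ccl7 (Pearson r = 0.94 of log2(CPM + 10)), Ccl3 with Ccl4 (0.93) and Ccl8 with Ccl12 (0.86). Ccl3 and its receptor Ccr1 reached 0.81, and Ccl2 and its receptor Ccr2 0.27. These sums share libraries and depth, and the values are descriptions. Of 10618 other genes, the 3 most like Ccl8 were Pf4 (0.90), C1qc and Ms4a7, and those most like Ccl12 were Msr1 (0.96), C1qc and Ms4a7. Ccl3 lay nearest to Tnf (0.93), Chka and Lilr4b, and Ccl4 to Lcp2 (0.90), Tnfaip3 and Mapkapk3. Ccl5 lay nearest to the NK receptor genes Klri2 (0.92), Klre1 and Klra3. Genes near to Ccr2 were Pycard (0.91) and Ms4a6b, and those nearest to Ccr1 were Cd300ld (0.98), Igsf6 and Clec4e. Ccl2 had no close match, with Rab1a (0.81), Pla2g15 and Dse, and Ccl7 was nearest to Dse (0.89), Fmn1 and Zfp703.

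Other genes of the pathway were counted from 5 lists. Among other CC and atypical receptors, Ccrl2, which binds chemerin, was apart and higher in monocytes and macrophages, at 213 CPM in D2 and 199.95 CPM in D7, against 90.9 CPM in Sham, where 12.5% and 14.7% of all genes were apart in either direction. Cx3cr1, the fractalkine receptor, had 286 CPM in D2 and 183 CPM in D7, against 90.0 CPM in Sham. In neutrophils Ccrl2 was apart as well, at 1748 CPM in D2 and 1912 CPM in D7, against 434 CPM in Sham. Of 14 other CC ligands 3 passed in monocytes and macrophages at D2 against Sham and 1 was lower, Ccl24, an eosinophil attractant, with 38.7 CPM in D2 and 317 CPM in Sham. In fibroblasts 3 passed at D2 against Sham, where 28.4% of all genes were apart. Ccl9 was higher, at 95.2 CPM in D2 and 3.04 CPM in Sham, and the related Ccl11 was lower, at 82.1 CPM in D2 and 75.3 CPM in D7, against 412 CPM in Sham. At D7 against Sham it was the 1 of 2 tested that was apart (17.9% of all genes).

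Of 16 inducers and brakes of CC ligand transcripts, 13 passed in neutrophils. Of these 4 were higher at D2 and 5 at D7 than in Sham, with 0 lower. Of all genes 28.8% and 29.6% were apart in either direction, so the counts of the list lie near the share over all genes. The list's median log2 ratios were 0.61 and 0.81, against 0.26 and 0.18 over all genes. Tnf had 2208 CPM in D2 and 1861 CPM in D7 neutrophils, against 114 CPM in Sham, and Nfkbia, an inhibitor of NF-kB, 6659 CPM in D2 and 6635 CPM in D7, against 1408 CPM in Sham. In monocytes and macrophages Il1b, an inducer of Ccl2, had 1795 CPM in D2 and 3672 CPM in D7, against 702 CPM in Sham, the 1 gene of 14 that was higher at each time. Il6 was the 1 that was lower, at 6.60 CPM in D2 and 25.03 CPM in D7, against 66.6 CPM in Sham. Of all genes in the class 12.5% at D2 and 14.7% at D7 were apart, near the share of the list. None of the 10 receptor signalling genes that passed in monocytes and macrophages was apart at D2 or D7 against Sham. The 16 genes of the dissociation response were read because tissue digestion induces them. In monocytes and macrophages 0 of 16 were higher and 4 lower at D2 (12.5% of all genes apart) and at D7 (14.7%) against Sham. In fibroblasts 1 of 15 was higher and 8 lower at D2 against Sham (28.4% of all genes apart), 1 was higher and 3 lower at D7 against Sham (17.9%), and 7 of 14 were higher and 0 lower at D7 against D2 (12.2%). In neutrophils 5 of 14 were higher and 0 lower at D2 against Sham (28.8%), and 3 were higher and 3 lower at D7 against Sham (29.6%). The part of digestion in the chemokine levels was not tested.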

How the data were processed

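Per the labels' protocols, live single cells from the femoral arteries of 6 mice per group were made into 1 Chromium 3' v3 library each. The deposited matrices hold UMI counts per gene and cell. The genome was mm10 and the tools Seurat 5.0.1 and Cell Ranger 7.2.0, per the submitters' processing notes; the file header has Cell Ranger 7.1.0. Deposited barcodes numbered 7757 in Sham, 11690 in D2 and 11574 in D7, with 39756684, 98260210 and 100571340 UMIs in all. Libraries shared 22 barcodes (Sham and D2), 21 (Sham and D7) and 29 (D2 and D7). No column of samples was left unused.

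Cells under 300 genes or under 500 UMIs, or with over 15% of UMIs from mitochondrial genes, were removed. Doublets were called with Scrublet in scanpy 1.11.5 at a score above 0.25, a threshold set after the scores had been seen, because the automatic one called none in Sham. The called share was 1.64% in Sham, 4.23% in D2 and 3.20% in D7. Cells were clustered by Leiden (leidenalg 0.10.2, resolution 1, 2000 variable genes with the 9 genes left out, 30 components, 15 neighbours) and clusters named from 143 markers of 18 classes. Class names rebuilt in this way may differ from the study's own.

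UMIs were summed per class and library. Levels carry exact Poisson intervals, ratios intervals from the conditional binomial, and shares of cells exact Clopper-Pearson intervals (SciPy 1.17.1), all for counting error only. No test and no p-value was computed. The rule for genes apart and the ratio intervals were checked on simulated class sums with Poisson counting error. Single cells were not simulated, so the check does not cover transcripts held by a few cells. The 9 genes were described in every class, with the 3 genes most like each by Pearson's r (at least 20 CPM in some sum, leaving out mitochondrial, ribosomal, haemoglobin, predicted and sex-linked genes). From each of 5 lists (70 genes) at most 4 members per class were named by largest ratio; 1 gene is not reported here. The 9 genes, the markers and the lists were chosen with earlier results of these data known. Promoter windows are from RefSeq, and gene positions from GENCODE M21.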

Additional observations from a re-analysis of the deposited data

Results flagged for a closer look

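The genes below moved in opposite directions in different cell classes under the same comparison. Each rests on 1 library per group, and the difference between classes was not tested. For Ccl3, the ratio of D7 over Sham was 2.33 in monocytes and macrophages and 20.3 in neutrophils, but 0.414 in T, NK and innate lymphoid cells. For Ccl4, the ratio of D2 over Sham was 26.6 in neutrophils and 0.377 in T, NK and innate lymphoid cells, and that of D7 over Sham was 16.6 in neutrophils and 0.421 in T, NK and innate lymphoid cells. For Ccl5, the ratio of D7 over Sham was 2.22 in dendritic cells, against 0.480 in monocytes and macrophages and 0.453 in T, NK and innate lymphoid cells. The Sham neutrophil levels of Ccl3 and Ccl4 rest on 60 and 59 UMIs, and in D7 dendritic cells 6 cells held 50% of the Ccl5 UMIs.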

How the results depend on the processing

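Of 1009 ratios of the 9 genes under alternative settings, 684 moved by less than their counting interval, 321 moved by more and 4 reversed. Of 147 counts of genes apart, 122 stayed within 1.5 times and 25 did not. Of 108 shares of cells, 43 stayed within their interval at a thinning depth of 2000 UMIs and 65 moved.

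The Ccl2 ratio in neutrophils reversed to 0.379 at D2 and 0.223 at D7 over Sham when each library was clustered on its own. The cause was not tested. Subtraction of the B cell level gave 0.535 for Ccl2 in neutrophils and 0.0979 for Ccl8 in fibroblasts at D7 over Sham. In both the D7 level was below that in B cells and was set to 0 before the pseudocount of 1 CPM, so no direction can be read from these values.

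With a ratio of at least 4 required, the genes apart at D2 against Sham, D7 against Sham and D7 against D2 numbered 1, 0 and 0 in monocytes and macrophages and 1, 0 and 0 in fibroblasts. The whole library then had 1 at D7 against Sham and 0 at D7 against D2. With no minimum level, which adds genes, there were 5, 5 and 1 in neutrophils and 7, 7 and 5 in fibroblasts. Clustering each library on its own gave 5 at D2 against Sham in monocytes and macrophages, 6 at D2 and 6 at D7 against Sham in neutrophils, and 6 at D2 against Sham and 5 at D7 against D2 in fibroblasts. Means over cells gave 2 in fibroblasts at D7 against Sham and 1 in neutrophils at D7 against D2. Subtraction of the B cell level gave 0 for the first of these and 1 for the second. With called doublets kept, fibroblasts had 2 at D7 against Sham. Without the 3 cells that hold most UMIs of each gene, an alternative chosen after seeing the data, they had 0.

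Single ratios moved as well. Ccr2 in monocytes and macrophages at D2 over Sham was 5.06 with libraries clustered separately. Without the 3 highest cells, the neutrophil ratios of D2 over Sham were 95.8 for Ccl3 and 71.2 for Ccl4. Ccl3 in monocytes and macrophages at D7 over Sham was 1.81, and Ccl5 in dendritic cells 1.16, with libraries clustered separately, neither apart. The precision in Sham neutrophils is limited by 144 cells and 60 UMIs of Ccl3. No paired analysis was possible because each group has 1 library and no test was made.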
